A study of Homo sapiens with 3 samples.

Results

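The 77 genes described here encode the proteins of the cytoplasmic ribosome. They were taken from the 19220 genes of the count table by symbol alone: RPL or RPS followed by digits and at most one letter A or X, together with RPLP0, RPLP1, RPLP2 and RPSA. Of the 77, 46 belong to the large subunit and 31 to the small subunit. The rule leaves out FAU, whose product is a ribosomal protein made as a fusion to a ubiquitin-like protein, and RACK1, which sits on the small subunit; their values are given separately.

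The RNA came from CAL27, a human oral squamous cell carcinoma line, and from 2 lines derived from it. Parental CAL27 grew without drug. CAL27/5FU, resistant to 5-fluorouracil (5FU), was kept in 10 µM 5FU, and CAL27/OXA, resistant to oxaliplatin (OXA), was kept in 10 µM OXA, so that drug exposure and the resistant state cannot be told apart. CAL27/5FU was selected by raising the drug concentration over many months. All 3 lines share the parental CAL27 background, DMEM and 10% serum. One library per line was analysed, so no ratio between lines has a replicate check, no p-value is given, and all intervals cover counting error only.

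Each ribosome carries 1 copy of most of these proteins, with the acidic stalk proteins RPLP1 and RPLP2 as the known exception, and cells make the proteins in step with ribosomal RNA. The mRNAs are short, abundant and mostly begin with a C followed by a run of pyrimidines, the 5′ terminal oligopyrimidine (TOP) tract, through which their translation responds to growth signals. 5FU is known to be incorporated into RNA and to disturb ribosomal RNA processing, and oxaliplatin is known to cause nucleolar stress, which makes the ribosomal protein genes a group of interest in both lines.

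To show what a TOP tract looks like, the starts of 8 members on which the results below turn are given as 30 bases of the RefSeq sequence (GRCh38.p14), 5′ to 3′ on the gene's strand, with 20 bases before the annotated start and 10 from it. Capitals mark an uninterrupted pyrimidine run that begins with C at the annotated start. The first 5 carry such a run and the last 3 do not.
RPLP0 (chr12:120201102-120201131, minus strand): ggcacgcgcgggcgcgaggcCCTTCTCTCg
RPS6 (chr9:19380227-19380256, minus strand): gcgctaagcggaagttggccCTCTTTTCCg
RPL24 (chr3:101686709-101686738, minus strand): gtctcttcccatgattctctCTTTCTTTTC
RPL35A (chr3:197950170-197950199, plus strand): ccacgcggcggggcctcgtcCTTCTCTTac
RPL36 (chr19:5690275-5690304, plus strand): gagttccgcgcggcgccagcCCTTCCgcca
RPS7 (chr2:3575240-3575269, plus strand): ttccggtttccgccctcctcctcgcgctgt
RPL9 (chr4:39458913-39458942, minus strand): tacaagtacgtaatgacgacagacgttctt
RPS28 (chr19:8321476-8321505, plus strand): ggctctccccgaagcacgtgactcctctcc

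The libraries held between 37297713 and 43455488 gene counts. KRT5, a keratin of basal squamous cells, had 286124 counts in the parental line, 46083 in CAL27/5FU and 72716 in CAL27/OXA, and all 6 squamous epithelial markers examined were detected in all 3 libraries. The 5 fibroblast markers summed to 7.51, 11.9 and 14.9 FPKM (fragments scaled by gene length and library depth) in the same order and the 2 endothelial markers to at most 0.189 FPKM. The 3 leukocyte markers summed to 41.6, 27.1 and 64.2 FPKM, nearly all from CD68 (3143, 1827 and 5055 counts), while the defining markers PTPRC and CD3E had at most 2 and 7 counts. The part of these markers in the results was not tested. In bulk RNA, fewer cells of a type and less RNA per cell cannot be told apart.

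Ribosomal protein mRNAs made up a smaller share of the CAL27/5FU library than of the other two. Their summed counts were 4.38% of all gene counts in the parental line (exact 95% binomial interval 4.37 to 4.38), 3.63% in CAL27/5FU (3.62 to 3.63) and 4.47% in CAL27/OXA (4.47 to 4.48). CAL27 and CAL27/OXA were close to each other and CAL27/5FU stood below both. The large subunit took 2.77%, 2.24% and 2.77% of counts, and the small subunit 1.61%, 1.38% and 1.70%, in the order CAL27, CAL27/5FU and CAL27/OXA.

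The members were among the most abundant mRNAs of the lines. On the deposited FPKM scale, which divides by gene length, their median was 660 in the parental line, 524 in CAL27/5FU and 669 in CAL27/OXA, beside 8.54, 9.48 and 9.18 over all 13676 genes tested. RPS2, a small-subunit protein near the mRNA entry channel, had the highest level at 2480, 2300 and 2565 FPKM. By the mean over the 3 libraries RPLP1, RPL7A, RPLP0 and RPS6 followed, an order that differed within single libraries. RPLP0, the base of the acidic stalk that recruits elongation factors, stood at 1436, 1141 and 1376 FPKM. RPS6, the small-subunit protein phosphorylated by S6 kinases, stood at 1240, 1039 and 1430 FPKM. Both of these defining members were high in every library and lowest in CAL27/5FU.

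RPS10, RPL36A, RPL17 and RPS29 were among the 5 lowest members. RPS10 was at 2.10, 1.62 and 2.48 FPKM, from 61, 42 and 75 counts. RPL36A was at 3.93, 5.47 and 6.05 FPKM and RPL17 at 22.7, 25.9 and 29.4 FPKM. The 72 members above these 5 lay between 95.96 and 2565 FPKM in every library.

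How far these low levels reflect the mRNA is uncertain. In the GENCODE 29 annotation, 74.1% of the RPS10 transcript examined is overlapped on the same strand by the read-through gene RPS10-NUDT3, 97.3% of RPL17 by RPL17-C18orf32 and 37.8% of RPL36A by RPL36A-HNRNPH2. The 3 read-through genes had 0 counts in every library. In all, 8 members are overlapped by another coding gene on the same strand, and RPS29 is not among them. Among all 77 members, 54 share at least one stretch of 100 bases with a transcript of another gene, mostly processed pseudogenes, and 13 share over 50% of such stretches. How the counting treated shared reads is not given in the sources used here, and its part in these values was not tested.

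**Figure D1:**
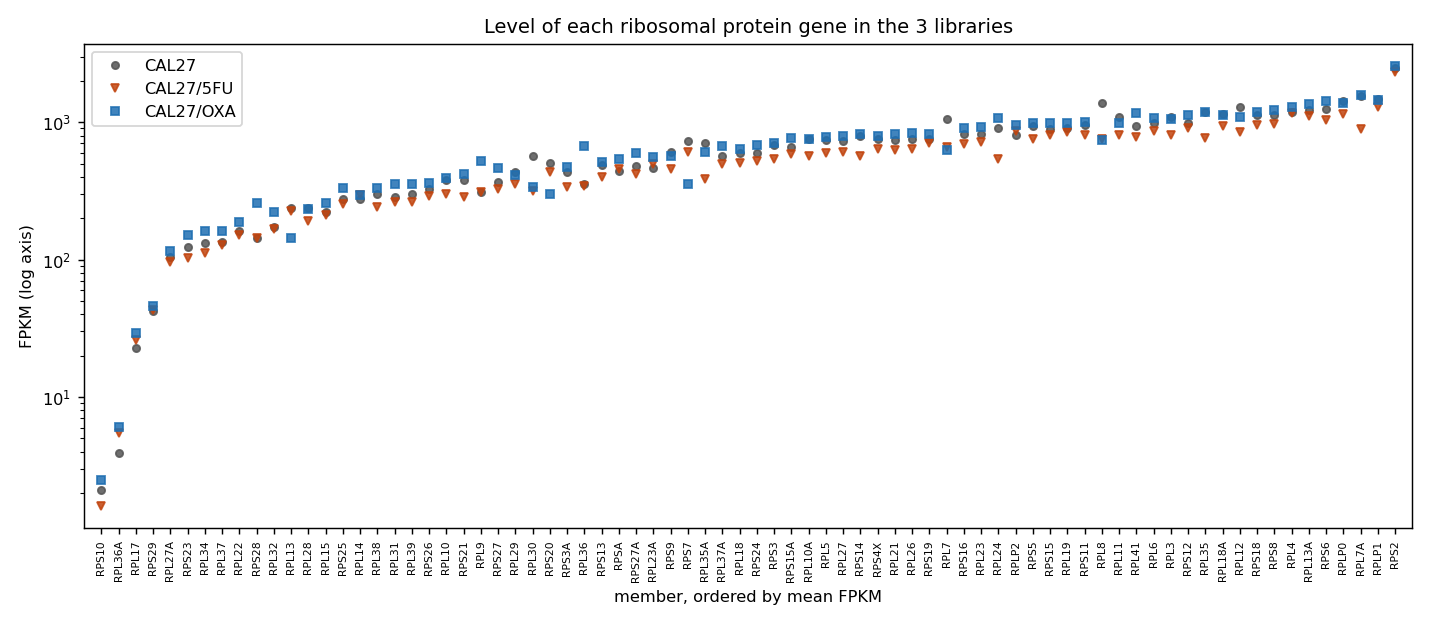
FPKM (log axis) of 76 of the 77 ribosomal protein genes, ordered by mean level, in CAL27 (circles), CAL27/5FU (triangles) and CAL27/OXA (squares), 1 library each. Most members lie within about one order of magnitude, RPS10 to RPS29 lie far below, and RPS2 is highest in all 3 libraries.

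The first comparison asked how CAL27/5FU differed from CAL27. Ribosomal protein mRNAs were lower nearly throughout. The median log2 ratio of scaled counts was -0.40 over the 77 members, a 1.32-fold lower level, beside -0.0035 over all tested genes. The ratio was below 0 in 74 of 77 members against 50.3% of all tested genes, and its whole counting interval was below 0 in 73 against 38.0%. The large and small subunits had medians of -0.41 and -0.40. The shift was moderate: 3 members (RPL8, RPL30 and RPL35A) were over 2-fold lower, against 6.72% of all genes, and none was over 2-fold higher, against 8.46%. Past 1.5-fold, 13 members were lower and 1 was higher, where 14.0% and 15.2% of all genes were.

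The members moved by similar amounts. Of the 77, 63 lay within 0.3 of their own median on the log2 scale, where 47.0% of all tested genes lay within 0.3 of theirs. Within 0.3 of 0 lay 21 members, against 46.9% of all tested genes. The SD over members was 0.28, against 0.96 over all tested genes, although low-count genes widen the latter. Such a spread was not particular to the members. The SD was 0.28 over the mitochondrial ribosomal protein genes and 0.25 over the proteasome genes described below, but 0.40 over the complex I genes. RPLP0 fell by 0.50 on the log2 scale (counting interval -0.52 to -0.49), from 1901 CPM (counts scaled by library size) to 1343. RPS6 differed by -0.43 (-0.45 to -0.40), from 1103 to 821 CPM.

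The size of this shift depended on the scaling and on gene properties. Scaled by total counts, the median over members was -0.23 while that of all tested genes was 0.17. The difference between members and all genes stayed at -0.40. A change of scaling moves all log2 ratios by nearly the same amount, so this is no separate check. With total counts no member was over 2-fold lower, and 1 was over 2-fold higher. Some members below 0 changed sign between scalings, RPL9, RPL14, RPLP2, RPS28 and RPS29 among them. The count of 74 members below 0 therefore holds for the reported scaling. Other abundant genes were also lower in CAL27/5FU: the 663 other genes with a mean of at least 100 FPKM had a median of -0.18, and 70.9% of them were below 0. Other short genes were lower as well, with a median of -0.23 over the 68 genes below 500 bases. The members' own median length, as implied by counts and FPKM, was 741 bases against 3008 over all tested genes. With the length trend and then the abundance trend of the other genes removed, an alternative chosen after seeing the data, the median over members was -0.13. The part of length, abundance and library composition in the shift was not tested.

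The second comparison set CAL27/OXA against CAL27, the same parental library. Here the family as a whole was close to its parental level. The median log2 ratio was -0.01 over the members and 0.0055 over all tested genes, and 40 of 77 members were below 0, where 49.5% of all genes were. The ratio lay within 0.3 of 0 in 64 members, against 45.6% of all tested genes. RPS7 and RPL8 were over 2-fold lower, against 9.28% of all genes, and no member was over 2-fold higher, against 6.54%. Past 1.5-fold, 7 members were lower and 3 were higher (17.0% and 14.1% of all genes). The sign of the median depended on the scaling: it was 0.13 with total counts, where all tested genes had a median of 0.14.

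The third comparison set the resistant lines against each other. The members were higher in CAL27/OXA than in CAL27/5FU by a median of 0.39 on the log2 scale, against 0.0079 for all tested genes, and 5 of 77 were below 0 (49.1% of all genes). The whole interval was above 0 in 71 members, against 36.4% of all genes, and below 0 in 5, against 35.5%. Past 2-fold, RPL24 was higher (4.18% of all genes) and 1 member was lower (8.38%), 2 members where 12.6% of all genes passed in either direction. Past 1.5-fold, 11 members were higher and 3 were lower (10.2% and 15.1% of all genes), which makes 14 members where 25.3% of all genes passed. Within 0.3 of 0 lay 17 members, against 51.8% of all genes, whereas 65 lay within 0.3 of the members' own median, against 51.9%. With the length trend removed the median was 0.23.

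**Figure D2:**
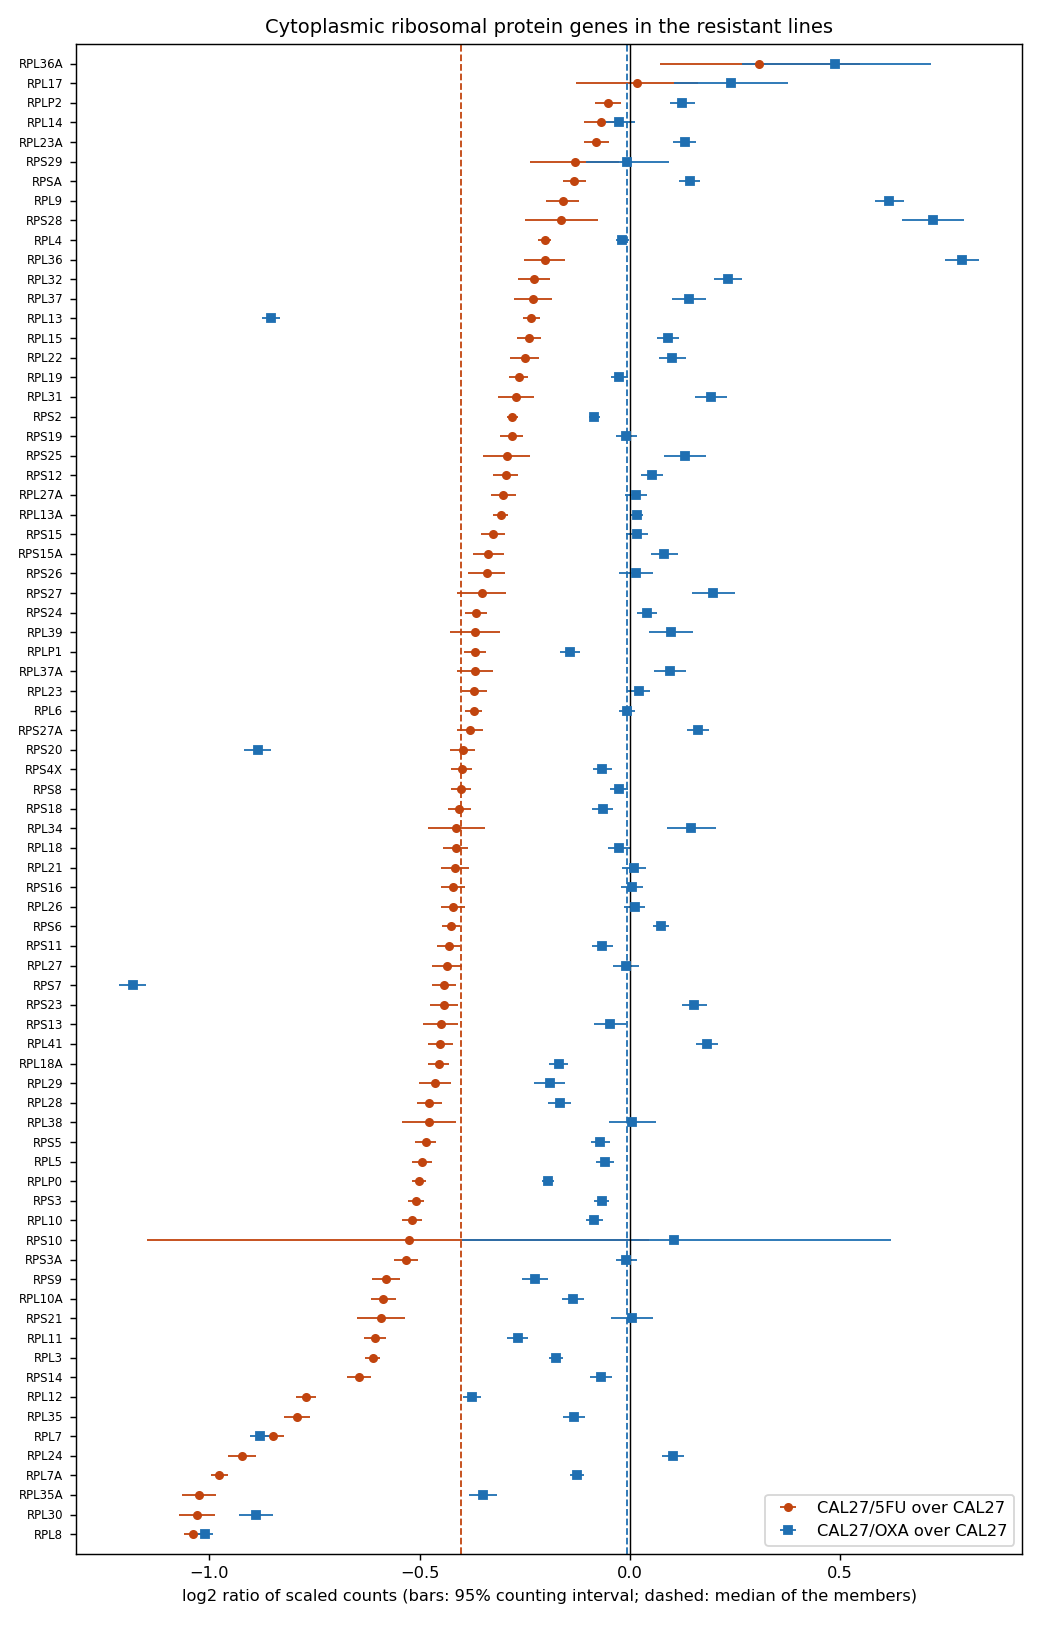
Log2 ratio of scaled counts of 76 of the 77 members in CAL27/5FU (circles) and CAL27/OXA (squares) over CAL27, with 95% counting intervals; dashed lines are the medians of all 77, -0.40 and -0.01. The CAL27/5FU points form a narrow band left of 0 and the CAL27/OXA points one around 0, with a few members far from either band; both sets share the CAL27 library.

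A small number of members stood apart from the family, and most of them lay beside genes that differed in the same direction. For each member, the 10 nearest tested genes that are not members (5 on each side where available, RefSeq GRCh38.p14 order) served as the local reference. All 4 members on chromosome 8 were among those that stood apart in CAL27/OXA. RPL8, a large-subunit protein close to the peptidyl transferase centre, had 55977 counts in the parental line, 27375 in CAL27/5FU and 31676 in CAL27/OXA. RPL30 had 13227, 6510 and 8146 counts, and RPL7 had 37160, 20741 and 23015. All 3 genes were high in the parental line and lower in both resistant lines.

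RPL8 was 2.05-fold lower in CAL27/5FU (log2 ratio -1.04, interval -1.06 to -1.02) and 2.02-fold lower in CAL27/OXA (-1.01, -1.03 to -0.99). Its neighbours had medians of -0.50 and -0.76, with 8 and 10 of 10 below 0. RPL30 stood at -1.03 and -0.89, beside neighbour medians of -0.68 and -1.41. RPL7 stood at -0.85 and -0.88, beside -0.12 and -0.71. RPS20, a small-subunit head protein, differed from these in CAL27/5FU: it stood at -0.40 there, the family median, with neighbours at 0.05, and at -0.89 in CAL27/OXA, with neighbours at -0.88. Over the 457 other tested genes of chromosome 8 the medians were -0.26 and -0.53.

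Members on the long arms of chromosomes 3 and 9 were low in CAL27/5FU but not to the same degree in CAL27/OXA. RPL24 had 21331 counts in the parental line, 11309 in CAL27/5FU and 26128 in CAL27/OXA, and RPL35A had 14763, 7287 and 13212. RPL7A had 58170, 29691 and 60750 counts. CAL27/5FU was the low library for each of them.

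The log2 ratios in CAL27/5FU were -0.92 for RPL24, -1.03 for RPL35A and -0.98 for RPL7A, and those in CAL27/OXA were 0.10, -0.35 and -0.13. RPL35, which lines the polypeptide exit, and RPL12, a stalk-base protein, also lie on the long arm of chromosome 9 and stood at -0.79 and -0.77 in CAL27/5FU. The neighbour medians of these 5 genes in CAL27/5FU were between -0.52 and -0.38. RPS6, on the short arm of chromosome 9, had neighbours at -0.05, and it stood at -0.43. On the short arm of chromosome 3, RPSA, RPL14, RPL15, RPL32 and RPL29 stood at -0.13, -0.07, -0.24, -0.23 and -0.46, beside neighbour medians of 0.20, 0.16, 0.00, -0.02 and -0.11. RPL14 and RPSA changed sign with the scaling, RPSA being higher in CAL27/5FU than in CAL27 on the FPKM scale (457 against 445).

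Other members stood apart in CAL27/OXA alone among the 2 comparisons with CAL27. RPS7, a small-subunit protein that binds MDM2, had 22237, 16449 and 11170 counts in CAL27, CAL27/5FU and CAL27/OXA. RPL13 had 44445, 37955 and 28038. Both were lowest in CAL27/OXA.

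RPS7 was 2.27-fold lower in CAL27/OXA (-1.18, -1.22 to -1.15), and its neighbours had a median of -0.73. RPL13 stood at -0.85 with neighbours at -0.98. On the high side, RPL36 had 7160, 6250 and 14116 counts, RPS28 2282, 2047 and 4291, and RPL9 10749, 9667 and 18800. CAL27/OXA was the high library for all 3.

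Their log2 ratios in CAL27/OXA were 0.79, 0.72 and 0.62, beside neighbour medians of 0.34, 0.51 and 0.33. Of RPL9, 77.3% of the 100-base stretches are shared with other genes' transcripts, and of RPL7, RPS7, RPL7A and RPL12 60.5%, 38.3%, 36.7% and 27.2%, so the levels of these 5 are uncertain. Among genes named earlier, RPSA, RPL29, RPL15, RPS2 and RPLP0 share 51.6%, 44.9%, 43.1%, 40.1% and 29.9%. The same limit applies to them. The share was 11.6% for RPL13, 9.05% for RPS28, at most 5.15% for RPL24, RPL35 and RPS20, and 0 for RPL36, RPL8, RPL30 and RPL35A.

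Taking all 77 members, 7 lay more than 1.5-fold below the family's median in CAL27/OXA and 6 of them had a neighbour median below 0. All 3 that lay as far above had a neighbour median above 0. In CAL27/5FU these numbers were 3 of 3 below and 1 of 2 above. Over all 77 members the median of the neighbour medians was itself just below 0, at -0.021 in CAL27/OXA and -0.020 in CAL27/5FU. For the members far below, it was -0.76 and -0.50. Across members, Pearson's r between member and neighbour median was 0.41 in CAL27/5FU and 0.67 in CAL27/OXA (Spearman's rho 0.30 and 0.44, n = 77). These describe genes of the same libraries, and some members share neighbours. With the neighbour medians subtracted, the family's median was -0.37 in CAL27/5FU and 0.05 in CAL27/OXA. Without chromosomes 3, 8 and 9, the 62 remaining members had medians of -0.38 and 0.00. DNA copy number was not measured here, and its part in these values was not tested.

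**Figure D3:**
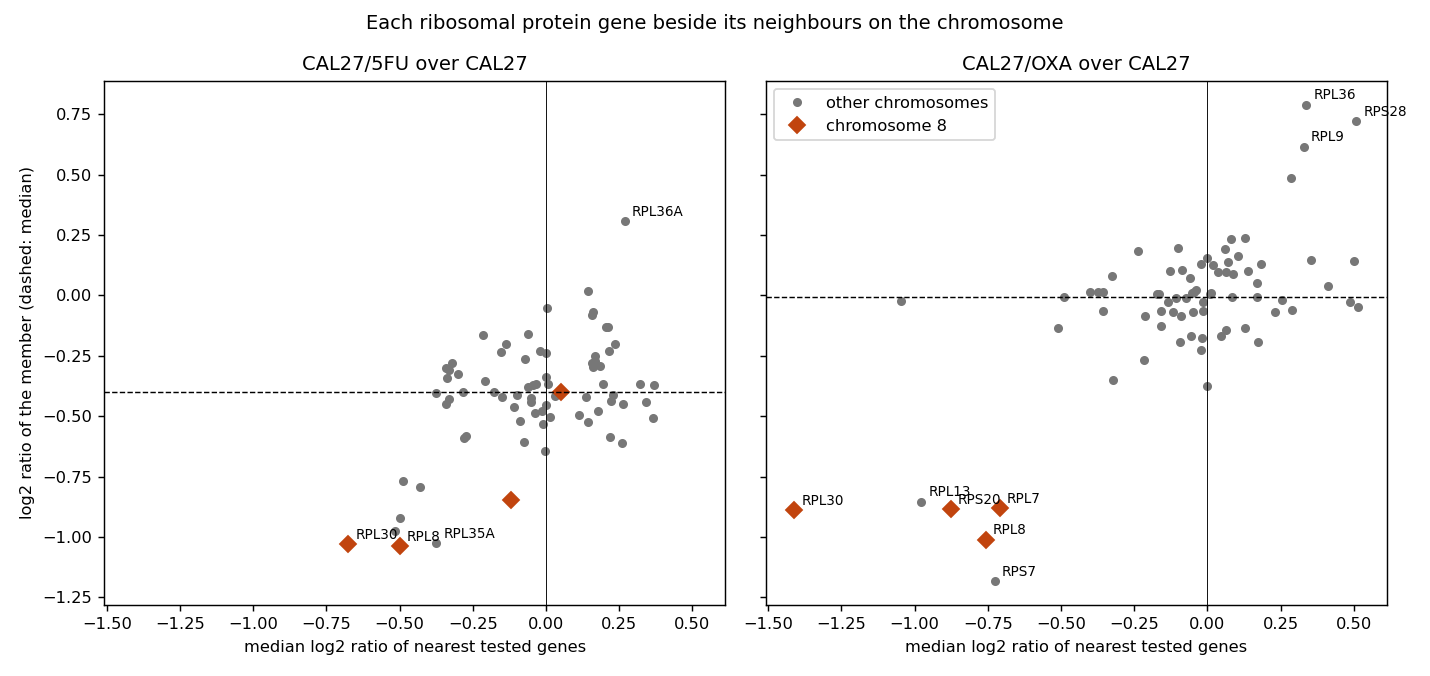
Log2 ratio of 76 of the 77 members over CAL27 (vertical axis) against the median log2 ratio of its nearest tested genes (horizontal axis) in CAL27/5FU (left) and CAL27/OXA (right); diamonds are members on chromosome 8, dashed lines the medians of all 77, and names mark members over 1.5-fold from that median. In CAL27/OXA the named members at -0.85 or below have neighbours below 0, and RPL36, RPS28 and RPL9 have neighbours above 0.

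By functional group, the stalk proteins RPLP0, RPLP1, RPLP2 and RPL12 had a median of -0.44 in CAL27/5FU and -0.17 in CAL27/OXA. These proteins spread from -0.77 for RPL12 to -0.05 for RPLP2 in CAL27/5FU, where the sign of RPLP2 depended on the scaling. The 8 proteins around the exit of the nascent chain had medians of -0.27 and 0.05. The 9 members whose mutation is known in Diamond-Blackfan anaemia had medians of -0.44 and -0.06. RPL5 and RPL11, which bind MDM2 together with ribosomal RNA when ribosome assembly fails, stood at -0.49 and -0.61 in CAL27/5FU and at -0.06 and -0.27 in CAL27/OXA. The cell cycle inhibitor CDKN1A, with 4288, 2197 and 3178 counts, stood at -0.97 and -0.62, MDM2 at 0.19 and -0.40, and MDM4 at 0.29 and -0.06.

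FAU and RACK1, left out by the symbol rule, stood at -0.11 and -0.34 in CAL27/5FU and at 0.13 and 0.02 in CAL27/OXA. RACK1 lay near the members' median in both lines, and the sign of FAU in CAL27/5FU depended on the scaling.

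The paralogs of the members, which are variant copies encoded at other loci, had values nearer 0 in CAL27/5FU. RPL3L and RPL10L had 4 and 2 counts in CAL27 and 0 in both resistant lines, too few for a ratio. The other 6 had a median of -0.05 in CAL27/5FU, from -0.11 for RPS27L to 0.08 for RPL7L1, and 0.14 in CAL27/OXA, from -0.30 for RPL39L to 0.24 for RPL22L1. RPL7L1, whose partner RPL7 lies on chromosome 8, made up 3.996% of the summed FPKM of the pair in the parental line, 7.33% in CAL27/5FU and 7.83% in CAL27/OXA. RPL22L1 made up 4.43%, 5.18% and 4.87% of its pair and RPL26L1 5.47%, 6.79% and 6.02%. RPL39L, at 7.45%, 8.96% and 5.77%, and RPS27L, at 4.65%, 5.47% and 4.03%, were above the parental share in CAL27/5FU and below it in CAL27/OXA. RPL36AL made up over 97% of its pair in every library (97.8%, 97.3% and 97.2%), since RPL36A was counted so low.

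Genes that build ribosomes did not share the members' shift. The 39 ribosome biogenesis factors had medians of 0.33 in CAL27/5FU and 0.31 in CAL27/OXA, positive under each of 5 scalings (0.33 to 0.50 and 0.31 to 0.44). In CAL27/5FU, 8 of the 39 were below 0, against 50.3% of all tested genes, and 6 were over 1.5-fold higher, a share close to the 15.2% of all tested genes. The highest were DDX21 (0.84), a nucleolar helicase, and BYSL (0.75), a factor of small-subunit assembly. BOP1, a large-subunit processing factor on chromosome 8, was lowest at -0.92, followed by NMD3, an export adaptor, at -0.49. Unlike the chromosome 8 members, BOP1 was higher in CAL27/OXA than in CAL27, at 0.41 (351, 186 and 531 counts in CAL27, CAL27/5FU and CAL27/OXA). In CAL27/OXA, 4 were below 0 (49.5% of all tested genes) and 9 were over 1.5-fold higher (14.1%), led by NIP7 (1.22) and RPF2 (0.77). The 11 RNA polymerase I genes had medians of 0.24 and 0.28, with TAF1A at 1.04 in CAL27/5FU and TAF1B and TAF1C at -1.94 and -1.29 in CAL27/OXA.

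Translation factors and other genes whose mRNAs are known to carry TOP tracts lay closer to the members. Among them are RACK1, given above, and NPM1, which is also counted with the biogenesis factors. The 19 had medians of -0.33 and -0.11, and 18 of 19 were below 0 in CAL27/5FU, against 50.3% of all tested genes. These are abundant mRNAs, and 70.9% of the 663 non-member genes with a mean of at least 100 FPKM were below 0. Over 1.5-fold lower in CAL27/5FU, as were 14.0% of all tested genes, were 4 of the 19: PABPC1 (-1.22), EEF1D (-1.08), EIF3H (-1.06) and EIF3E (-0.86). All 4 lie on chromosome 8. They stood at -1.31, -1.07, -1.08 and -0.73 in CAL27/OXA. The 13 subunits of initiation factor eIF3 had medians of -0.18 and 0.02, and the 15 regulators of TOP mRNAs and growth signalling -0.07 and -0.04, led by LARP1 (0.37 in CAL27/5FU), which binds TOP tracts, with TSC1 (-0.66) and MYC (-0.46) lowest.

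Other large complexes made of many abundant proteins were compared in the same way. The 78 mitochondrial ribosomal protein genes had medians of -0.03 in CAL27/5FU and 0.09 in CAL27/OXA, and the 37 tested proteasome genes -0.12 and -0.00. The 37 genes of respiratory complex I had a median of -0.27 in CAL27/5FU, with 33 below 0 (50.3% of all tested genes), and -0.02 in CAL27/OXA. Of the lists of complexes, complex I lay nearest to the ribosomal proteins in CAL27/5FU. Several list medians changed sign with the scaling. In CAL27/5FU these were the paralogs, the regulators, the mitochondrial ribosome and the proteasome. In CAL27/OXA they were both subunits, the Diamond-Blackfan genes, the translation factors and other TOP genes, the regulators, the proteasome and complex I. Both groups of reference genes described below did so too.

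**Figure D4:**
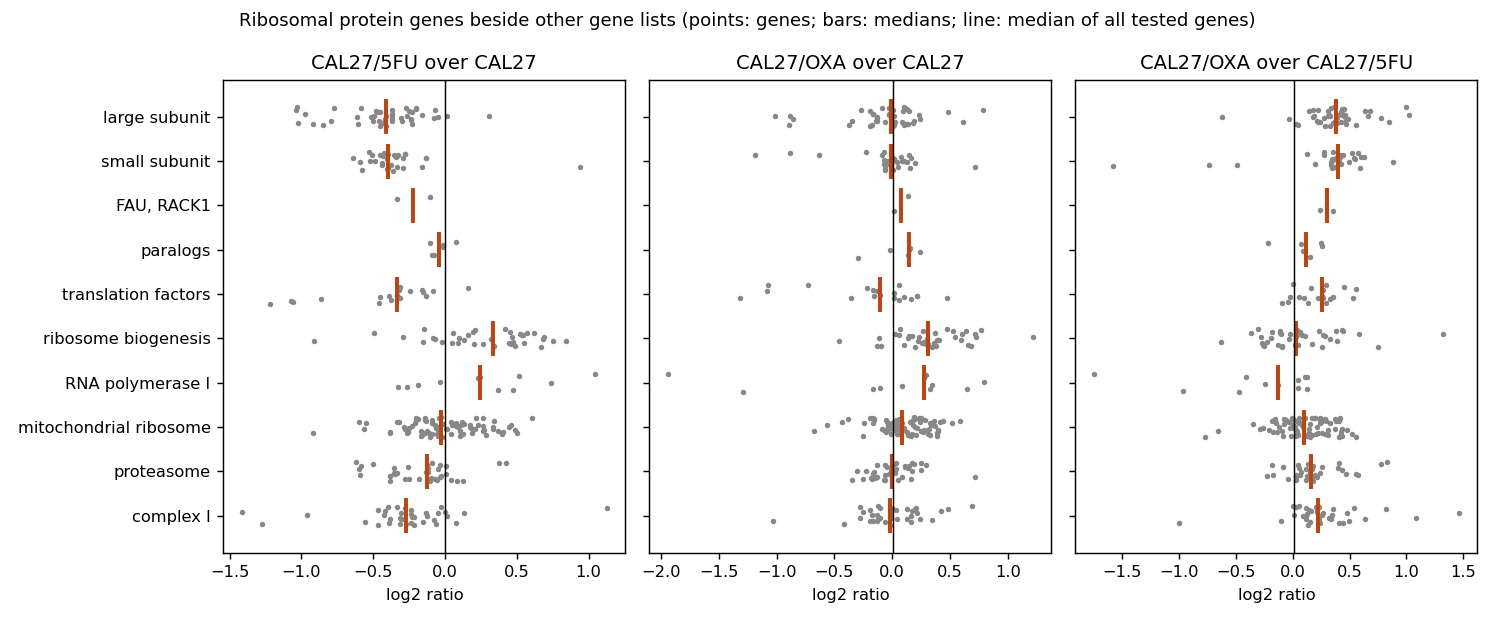
Log2 ratios of the genes of 10 lists in the 3 comparisons; grey points are tested genes, thick bars the list medians and the thin line the median of all tested genes. The 2 ribosomal subunits lie at -0.41 and -0.40 in CAL27/5FU over CAL27, while ribosome biogenesis genes lie at 0.33. The list labelled translation factors also holds other genes with TOP tracts.

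TOP tracts were common at the members' annotated starts. A start was available for 62 of the 77 members, and 46 of them (74.2%) had at least one annotated start with a C followed by 4 pyrimidines (the motif was read on the gene's strand only, at the start itself). The share was 4.07% over all 35116 annotated starts and 6.91% over 10586 other tested genes. Members with a tract had a median of -0.42 in CAL27/5FU and the 16 without one -0.29. In CAL27/OXA the medians were 0.01 and -0.01. The other tested genes with a tract had medians of -0.01 in both. The 3 members without a tract shown above, RPS7, RPL9 and RPS28, are among those that stood apart in CAL27/OXA, as is RPL36, which carries one. A match describes the letters at an annotated start and no more.

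Several members are used as reference genes in RT-qPCR, so their values bear on how such measurements compare across these lines. Of the 8 listed, all were below 0 in CAL27/5FU, as were 74 of all 77 members and 50.3% of all tested genes. They ran from RPL30 (-1.03) to RPL32 (-0.23), with a median of -0.42, close to that of the family. In CAL27/OXA they ran from -0.89 for RPL30 to 0.23 for RPL32. Among 13 other common reference genes, GAPDH, the glycolytic gene used as reference in the study's RT-qPCR, had 366244, 218804 and 273127 counts and stood at -0.75 and -0.61. YWHAZ (-1.11 and -1.02), PGK1 (-0.79 and -0.91) and TFRC (-0.97 and -0.78) were lower than GAPDH in both lines, whereas ACTB stood at 0.02 and -0.11 and TBP at -0.07 and 0.01. B2M stood at 0.28 and 0.42, HPRT1 at -0.20 and 0.25, GUSB at -0.24 and 0.18, PPIA at -0.55 and -0.13 and SDHA at -0.35 and -0.38. The signs of ACTB and PPIA in CAL27/OXA and of TBP in CAL27/5FU depended on the scaling.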

How the data were processed

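Total RNA from CAL27, CAL27/5FU and CAL27/OXA cells was sequenced by the authors, and the 1 labelled library per line was used here. The deposited tables hold raw read counts for 19220 genes and FPKM values made by the authors for 19225. The submitters' processing notes name CASAVA 1.8 and HISAT2 2.0.5 with GRCh38/hg38; the counting tool, annotation and strandedness are not given in the sources used here. The tables hold 3 more value columns with no matching sample label; they were displayed when the tables were first inspected and enter no value here.

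Counts were scaled by TMM (edgeR 4.0.16, R 4.3.3), and log2 ratios of CPM were taken (prior count 2) where counts averaged 10 or more, which held for 13676 genes. Exact 95% Clopper-Pearson intervals on each pair of counts cover counting error only. With 1 library per line no test was run. The ratio and interval calculation was tested on simulated counts with known fold changes and counting error only. Those counts were scaled by library totals, so the test did not cover the TMM scaling. Gene positions and starts came from RefSeq (GRCh38.p14), and overlaps and shared 100-base stretches from GENCODE 29. The authors' 2-fold limit was used. Alternatives were DESeq2 1.42.0 size factors, upper-quartile and total-count scaling, other priors, filters and thresholds, FPKM, and removal of a length trend (lowess span 0.3). The removal of neighbour medians and abundance trends, and leaving out chromosome 8 or overlapped members, were chosen after seeing the data.

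Named genes were RPLP0, RPS6, the 5 highest and lowest members by ratio in each comparison and by mean FPKM, and the members of fixed lists. For the larger lists the 2 highest and lowest genes were named. RPL7, RPL12, RPL13, RPL35 and the genes compared by chromosome arm were in part named after their values were seen. Some genes that this rule names, and 1 other way of taking the share of counts, are not reported here. The members and lists were chosen with earlier results of these data known.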

Additional observations from a re-analysis of the deposited data

Results flagged for a closer look

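For a number of members the ratio to CAL27 lay on opposite sides of 0 in the 2 resistant lines. RPS6 (-0.43 and 0.07) and RPL32 (-0.23 and 0.23) are among them. Flagged here are the 4 with the largest such differences among members reported here. With 1 library per line the difference was not tested, and both ratios share the CAL27 library. The log2 ratio in CAL27/5FU minus that in CAL27/OXA was -1.03 for RPL24, -0.99 for RPL36, -0.88 for RPS28 and -0.78 for RPL9. RPL9 and RPS28 lay close to 0 in CAL27/5FU, where their sign depended on the scaling.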

How the results depend on the processing

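No paired analysis was possible because each line has 1 library. The members' median in CAL27/5FU over CAL27 (-0.40) was -0.36 with upper-quartile scaling, -0.23 with total counts and with FPKM at either pseudocount, -0.27 without the length trend, -0.23 without the abundance trend and -0.13 without both. In CAL27/OXA over CAL27 it was 0.13 with total counts, 0.12 and 0.13 with FPKM at pseudocounts of 1 and 0.1, 0.047 with neighbours subtracted, 0.10 without the abundance trend and 0.076 without both trends. In CAL27/OXA over CAL27/5FU it was 0.35 with total counts and FPKM, 0.23, 0.32 and 0.21 without the length trend, the abundance trend and both. Past 2-fold, the counts (3, 2 and 2 in the 3 comparisons) became 14, 10 and 14 past 1.5-fold and 1, 1 and 1 with total counts, with FPKM and where the whole interval had to pass. They became 0 (CAL27/5FU) and 1 (CAL27/OXA) with upper-quartile scaling, and 1 (CAL27/5FU) and 1 (CAL27/OXA over CAL27/5FU) without the length trend. Without the abundance trend they were 0, 1 and 1, and without both trends 1, 1 and 1. With neighbours subtracted, and without chromosome 8, they were 1 in each comparison with CAL27. Without overlapped members 1 remained in CAL27/OXA over CAL27/5FU. In CAL27/5FU the 1 member was a higher one with total counts, with FPKM, without the length trend, without both trends and with neighbours subtracted, and in CAL27/OXA with neighbours subtracted; in the reported setting all 3 and both were lower ones. The members' share in CAL27, CAL27/5FU and CAL27/OXA was 12.003%, 10.1% and 12.2% of summed FPKM. Without the 10 genes with most counts it was 4.65%, 3.80% and 4.43% of counts. Of the shares given here, only this last put CAL27/OXA below CAL27. In the reported scaling the members' summed CPM was also lower in CAL27/OXA than in CAL27 (log2 ratio -0.10). The cause of these changes was not tested.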
